A study of Mus musculus with 30 samples.

Results

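The monocarboxylate transporters Slc16a1, Slc16a3 and Slc16a6 and their partner basigin (Bsg) were followed in cultured mouse muscle fibres (myotubes), which were obtained by differentiating the established myoblast line C2C12. The 4 genes were taken by symbol from a table of 16025 genes, and all 4 were among the 12184 genes that had enough counts to be tested. They were chosen as a family with earlier results of the same data known, and Slc16a6 was selected on its measured values: it was among the largest rises after D-galactose, and lower when the ginseng water extract preceded the sugar. The 4 genes in those comparisons (D-galactose against control, and the water extract with D-galactose against D-galactose) are therefore described without a test, and so is Slc16a6 in every other comparison that uses control, Dgal or RGW_Dgal libraries.

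D-galactose is a sugar given to cells and animals as a model of ageing, and the study set it beside preparations of Korean Red Ginseng, whose saponins are called ginsenosides. There were 10 groups of 3 libraries. Dgal myotubes received D-galactose at 20 mg/mL for 24 h. RGW_Dgal, SFr_Dgal, NSFr_Dgal and Rb2_Dgal myotubes received a preparation for 12 h and then the same D-galactose for 24 h. RGW is the water extract, SFr its saponin fraction and NSFr its non-saponin fraction, each used at 100 µg/mL, and Rb2 is a purified ginsenoside used at 20 µM. RGW, SFr, NSFr and Rb2 myotubes received the preparation alone, labelled as 12 h, and control myotubes received vehicle. All groups were of wild-type genotype and of the same cell line. A group with a preparation and D-galactose thus differed from its preparation-alone group in labelled time as well as in the sugar, and the labels do not give the time at which control myotubes were collected. The design text calls the libraries biological replicates, but no label says that they came from separate cultures, so the p-values measure the spread between these samples.

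The monocarboxylate transporters MCT1 and MCT4 move lactate, pyruvate and ketone bodies across the plasma membrane, each molecule together with a proton. Slc16a1 encodes MCT1, a carrier of high affinity that is found in oxidative muscle fibres, where it takes up lactate. Slc16a3 encodes MCT4, which serves lactate export from glycolytic fibres and is a known target of the hypoxia-inducible factor HIF-1. Slc16a6 encodes MCT7, which in zebrafish exports ketone bodies from the liver. Basigin (CD147) is a membrane glycoprotein of the immunoglobulin superfamily that MCT1 and MCT4 need to reach the cell surface. Its relative embigin (Emb) can serve MCT1 in the same way.

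The libraries held 22209306 to 30218420 expected counts, so 3 counts, the level below which a gene cannot be told from absent, were worth 0.0993 to 0.135 CPM (counts scaled to the total of the library). The 6 libraries with SFr stood apart from the other 24 on the first principal component, which held 40.6% of the variance of the 1000 most variable genes. The myotube markers, 9 genes with Acta1 and Myh3 among them, summed to 14002 to 14755 CPM in SFr and 15615 to 16392 CPM in SFr_Dgal libraries, and to 17939 to 18151 CPM in Dgal and 18509 to 19017 CPM in control libraries. The 5 dividing-cell markers (Mki67, Top2a, Ccna2, Ccnb2 and Birc5) summed to 55.0 to 65.6 CPM in SFr, 30.1 to 32.2 CPM in SFr_Dgal, 60.4 to 67.2 CPM in Dgal and 150 to 157 CPM in control libraries. Of the 5 fat-cell markers, Adipoq, Plin1 and Lep never exceeded 1 expected count, while Cebpa, the gene of a transcription factor that was the only marker of that list to be tested, rose after SFr and carried the list's sum of 24.4 to 25.9 CPM in SFr against 13.6 to 15.7 CPM in control libraries. The markers of bone and cartilage summed to at most 1.09 CPM, those of endothelium and blood to at most 1.63 CPM and those of photoreceptors and pigment epithelium to at most 10.0 CPM. In such bulk RNA, fewer cells of a type and less RNA per cell cannot be told apart.

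On GRCm38, Slc16a1 lies at chr3:104638668-104658462 on the plus strand, Slc16a3 at chr11:120948480-120960868 on the plus strand, Slc16a6 at chr11:109450855-109473598 on the minus strand and Bsg at chr10:79704491-79711969 on the plus strand. All 4 are protein-coding genes in GENCODE vM21. The RefSeq promoter table matched Slc16a1 and Slc16a3, whose promoters are shown as those of the lactate carriers, both called higher after SFr. They are the 250 bases before the RefSeq start on GRCm38.p6, plus strand, 5′ to 3′, with matches to the motifs searched in capitals. The RefSeq start of Slc16a3 lies inside the GENCODE span of the gene.
Slc16a1, chr3:104638414-104638663: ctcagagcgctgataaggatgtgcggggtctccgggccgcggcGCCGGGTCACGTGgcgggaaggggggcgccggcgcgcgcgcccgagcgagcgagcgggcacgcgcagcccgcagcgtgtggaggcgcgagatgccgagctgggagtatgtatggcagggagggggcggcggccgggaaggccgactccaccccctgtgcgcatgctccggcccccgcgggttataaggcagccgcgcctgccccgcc
Slc16a3, chr11:120948817-120949066: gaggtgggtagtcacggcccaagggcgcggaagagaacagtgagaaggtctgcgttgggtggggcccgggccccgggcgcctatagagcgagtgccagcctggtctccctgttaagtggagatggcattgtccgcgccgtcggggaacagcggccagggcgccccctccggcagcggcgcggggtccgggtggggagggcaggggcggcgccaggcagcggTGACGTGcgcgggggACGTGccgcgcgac

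Both windows were rich in G and C, at 76.4% for Slc16a1 and 73.6% for Slc16a3. The motifs were searched on both strands. The E-box CACGTG stood 200 to 195 bases before the start of Slc16a1 and in 6.02% of 32851 RefSeq promoter windows of the same length. Inside it lay ACGTG, the core of hypoxia response elements, and it overlapped a match to TGACNNNGC, the antioxidant response core, on the minus strand. ACGTG occurred 27 to 23 and 14 to 10 bases before the start of Slc16a3, and at least once in 16.6% of all windows. The first of these overlapped TGACG, a core of cAMP response elements, which 17.8% of windows held, against 10.2% for TGACNNNGC. These are matches of letters only, and binding was not measured.

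Compared per length, basigin transcripts far exceeded those of the transporters they serve. Bsg ranged from 404 to 480 CPM per kilobase of exon over the 10 group means, Slc16a3 from 18.8 to 25.0, Slc16a1 from 14.98 to 26.4 and Slc16a6 from 1.05 to 2.92. The lactate carriers were thus at similar levels, with MCT7 at about the level of minor family members such as Slc16a11 (1.99 to 4.67 CPM per kilobase). Neuroplastin (Nptn), another basigin relative, had 44.0 to 50.3 and embigin 3.28 to 6.08 CPM per kilobase. Slc16a7, the gene of MCT2, was the lowest tested family member at no more than 0.0344 CPM per kilobase. It had at most 18 expected counts in any library, where 3 counts were the detection limit.

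**Figure D1:**
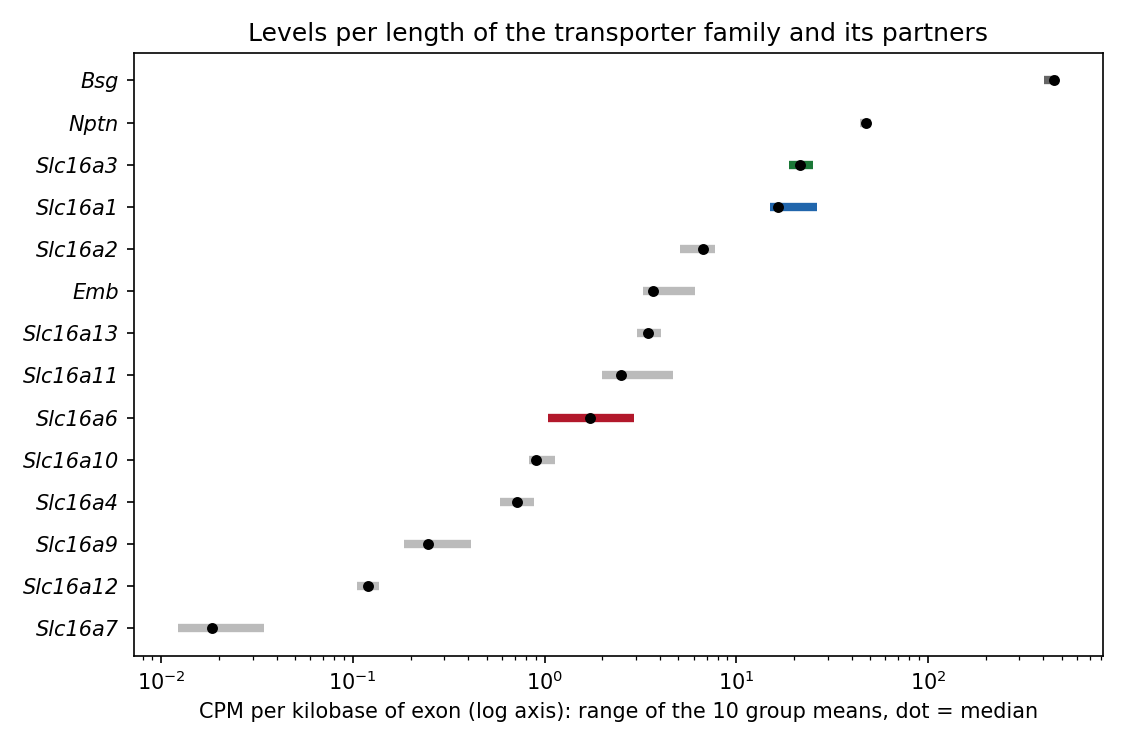
Levels of the 4 genes (coloured) and of their relatives (grey) in CPM per kilobase of exon on a log axis. Bars span the 10 group means and dots mark their median: Bsg lies at 404 to 480, the lactate carriers between 14.98 and 26.4 and Slc16a6 between 1.05 and 2.92.

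Slc16a6 varied most over the groups, with a 2.79-fold range between the highest and the lowest group mean, followed by Slc16a1 (1.76-fold), Slc16a3 (1.33-fold) and Bsg (1.19-fold). The coefficient of variation within a group had a median of 6.15% for Slc16a6, 2.86% for Slc16a1, 3.998% for Slc16a3 and 3.06% for Bsg. The 4 genes did not follow a common course. Over the 30 libraries, which share groups and SFr libraries that stand apart, Pearson's r of log2 CPM was highest between Slc16a3 and Slc16a6 (0.53) and lowest between Slc16a1 and Bsg (-0.30).

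**Figure D2:**
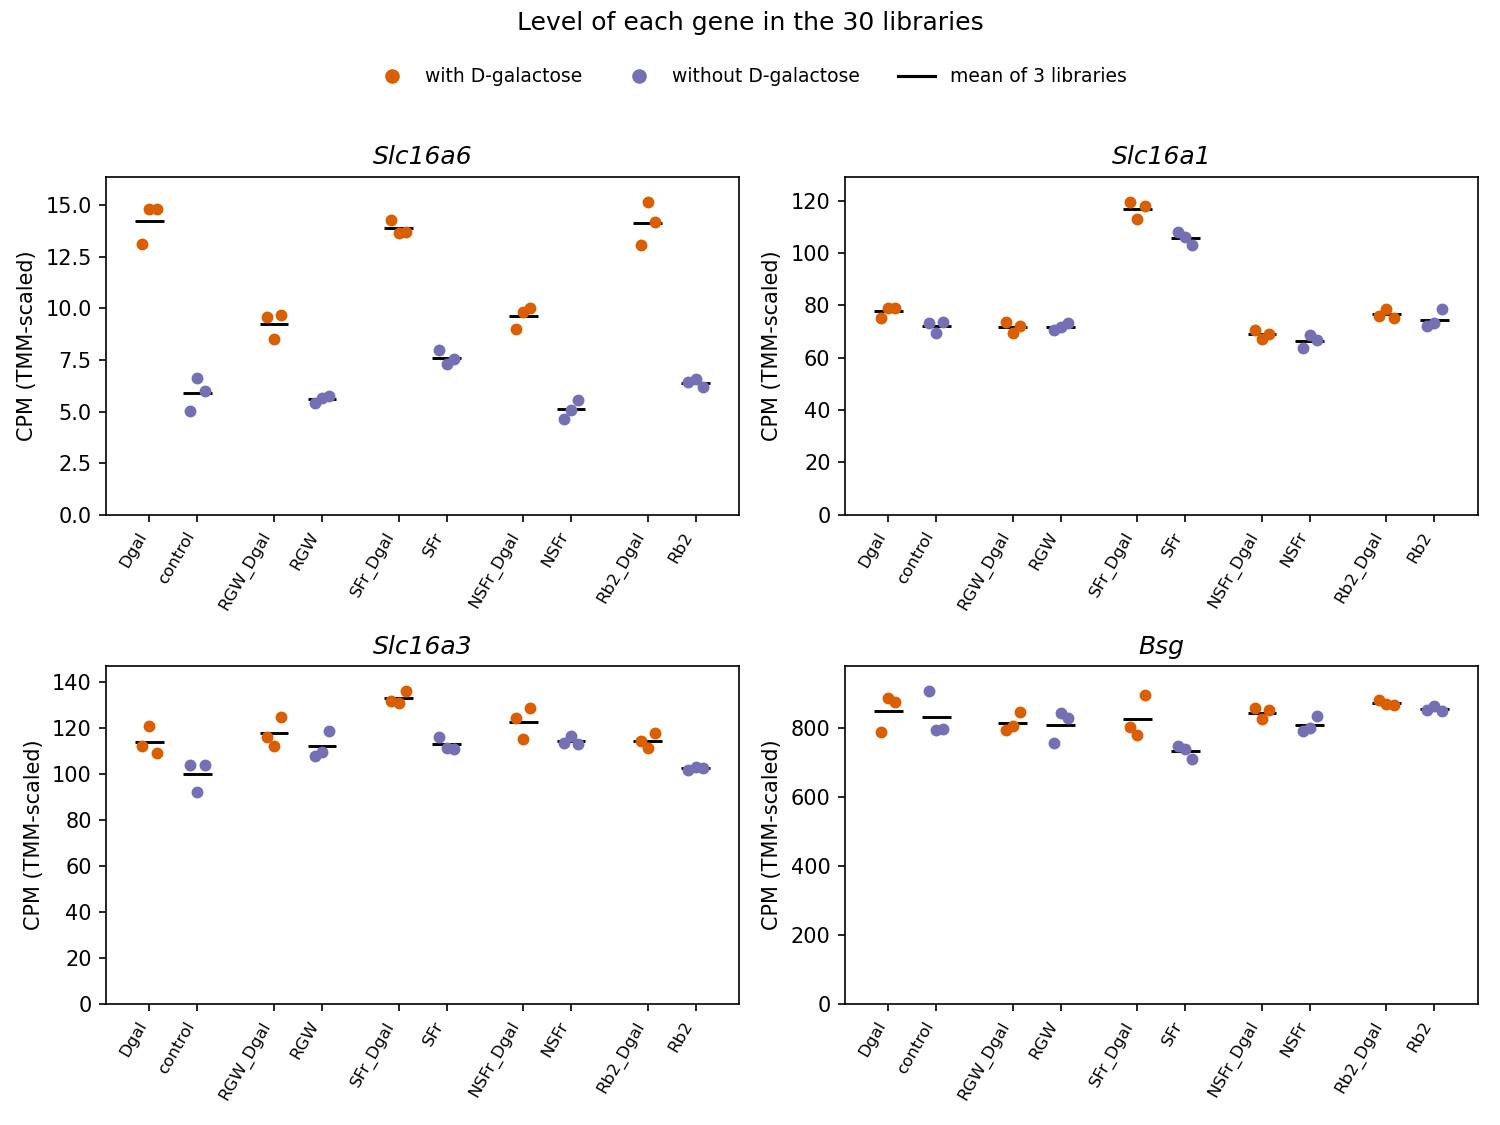
CPM of each gene in all 30 libraries, as points, with group means as lines; groups with D-galactose (orange) stand left of the group without it (purple). Slc16a6 was higher with D-galactose on every background, Slc16a1 was above 100 CPM in the SFr and SFr_Dgal libraries alone, and Slc16a3 and Bsg moved within narrower ranges.

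Slc16a1, the MCT1 gene, was higher wherever SFr was present. It had 108, 106 and 103 CPM in SFr, against 73.1, 69.5 and 73.7 CPM in control libraries. It had 120, 113 and 118 CPM in SFr_Dgal, against 75.3, 79.1 and 79.1 CPM in Dgal libraries. In both comparisons every library with SFr lay well above every library without it. The log2 fold change was 0.55 ± 0.039 (standard error, adjusted p = 5.59e-14) for SFr against control and 0.59 ± 0.039 (adjusted p = 1.33e-14) for SFr_Dgal against Dgal. Of the 3 genes other than Slc16a6, 3 were called after SFr, with Slc16a1 and Slc16a3 higher and Bsg lower, and 2 in SFr_Dgal, Slc16a1 and Slc16a3, both higher. The background was wide: 43.1% of all genes tested were called in SFr against control and 41.3% in SFr_Dgal against Dgal. Several marker lists moved with this rise. Of the myotube markers, 7 of 9 fell after SFr against control and 6 of 9 in SFr_Dgal against Dgal. In both comparisons 4 of 5 myoblast and satellite-cell markers fell (median log2 fold change -0.22 and -0.25), and 5 of 5 dividing-cell markers (-1.31 and -1.14). Cebpa, of the fat-cell list, rose in both comparisons. Their part in the result was not tested.

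The other preparations left Slc16a1 within a small range of their baselines. NSFr_Dgal libraries had 70.6, 67.2 and 69.2 CPM, all below the Dgal libraries, and the log2 fold change was -0.17 ± 0.040 (adjusted p = 0.00677). That call was lost without replicate 2 of NSFr_Dgal (adjusted p = 0.0528). NSFr alone gave 63.6, 68.5 and 66.8 CPM, also below all control libraries, but missed the threshold (log2 fold change -0.12, 95% interval -0.20 to -0.04, adjusted p = 0.0562). Neither RGW (70.6, 71.7 and 73.2 CPM) nor Rb2 (71.9, 73.1 and 78.5 CPM) was called against control, with 95% intervals of -0.09 to 0.08 and -0.03 to 0.13. In Rb2_Dgal against Dgal the interval was -0.11 to 0.06 (adjusted p = 0.886). The background of these comparisons was 6.33% of genes called in NSFr_Dgal against Dgal, 8.08% in NSFr, 3.21% in RGW and 1.53% in Rb2 against control, and 2.26% in Rb2_Dgal against Dgal. In RGW_Dgal, Slc16a1 had 73.6, 69.4 and 72.2 CPM, all below the Dgal libraries (log2 fold change -0.12 ± 0.040, given without a test).

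D-galactose itself moved Slc16a1 little. In Dgal it averaged 77.8 ± 2.18 CPM and in control 72.1 ± 2.28 CPM (SD, n = 3 each), a log2 difference of 0.11 ± 0.040 given without a test. On the SFr background it rose by 0.14 ± 0.037 (SFr_Dgal against SFr, adjusted p = 0.00554), with every SFr_Dgal library above every SFr library. On the RGW, NSFr and Rb2 backgrounds it was not called, with 95% intervals of -0.08 to 0.08, -0.03 to 0.14 and -0.04 to 0.12. The order of group means ran from SFr_Dgal and SFr, each clear of the next group, to NSFr at the low end. The 8 groups between Dgal and NSFr overlapped with their neighbours in that order.

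Slc16a3, the MCT4 gene, moved less and in more groups. It had 116, 112 and 111 CPM in SFr and 114, 117 and 113 CPM in NSFr, against 104, 92.2 and 104 CPM in control libraries. All libraries of both fractions lay above all control libraries, in which replicate 2 was the lowest. The log2 fold change was 0.17 ± 0.047 after SFr (adjusted p = 0.00315) and 0.19 ± 0.047 after NSFr (adjusted p = 0.00848). Both comparisons share the control libraries, and both calls were lost without control replicate 2 (adjusted p = 0.0675 for SFr and 0.0914 for NSFr).

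With RGW, Slc16a3 had 108, 110 and 119 CPM, also above all control libraries, at a log2 fold change of 0.16 ± 0.047 that missed the threshold (adjusted p = 0.0535). That value lay at the edge: it fell below the threshold without control replicate 1 (0.0469) or 3 (0.0461), and was 0.314 without control replicate 2. Rb2 libraries had 102, 103 and 103 CPM, within the range of the control libraries (95% interval of the log2 difference -0.06 to 0.13). Before D-galactose, SFr was the preparation with a call: SFr_Dgal had 132, 131 and 136 CPM against 112, 121 and 109 CPM in Dgal libraries (log2 fold change 0.22 ± 0.047, adjusted p = 0.000237). NSFr_Dgal libraries, at 124, 116 and 129 CPM, overlapped with Dgal (0.11 ± 0.047, adjusted p = 0.184), as did Rb2_Dgal (95% interval -0.09 to 0.10). The difference of RGW_Dgal from Dgal was 0.04 ± 0.047, given without a test.

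With D-galactose, Slc16a3 was higher than without it in each group mean. It averaged 114 ± 6.13 CPM in Dgal and 100.2 ± 6.92 CPM in control (log2 difference 0.19 ± 0.048, given without a test). SFr_Dgal exceeded SFr by 0.24 ± 0.046 (adjusted p = 0.000343) with no overlap of libraries. Rb2_Dgal, with 114, 112 and 118 CPM, exceeded Rb2 by 0.16 ± 0.047 (adjusted p = 0.014), a call that was lost without replicate 3 of Rb2_Dgal (0.0744). NSFr_Dgal against NSFr (0.10 ± 0.047, adjusted p = 0.162) and RGW_Dgal against RGW (0.07 ± 0.047, adjusted p = 0.335) missed the threshold. SFr_Dgal was clear of the next group in the order of means, and the groups from NSFr_Dgal down to RGW overlapped with their neighbours.

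The balance of the lactate carriers was tilted furthest toward MCT1 with SFr. Per kilobase, Slc16a3 exceeded Slc16a1 in 8 of the 10 groups, at ratios of 1.22 ± 0.064 in Dgal and 1.16 ± 0.045 in control (SD, n = 3 each). In SFr_Dgal the ratio was 0.949 ± 0.026 and in SFr 0.890 ± 0.014. Which carrier led there depends on the length used, the union of all annotated exons. In CPM, not divided by length, Slc16a3 was above Slc16a1 there too, at 133 against 117 in SFr_Dgal and 113 against 106 in SFr. The ratio was highest with NSFr, at 1.48 ± 0.061 in NSFr_Dgal and 1.44 ± 0.041 in NSFr. These ratios were not tested.

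Slc16a6, the MCT7 gene, had the widest response to D-galactose. It had 13.1, 14.8 and 14.8 CPM in Dgal, against 5.01, 6.62 and 6.02 CPM in control libraries, a 2.44-fold difference (log2 fold change 1.29 ± 0.086). This value brought the gene into the set and is a description; 25.1% of all genes were called in that comparison. The RGW_Dgal libraries also entered the choice, so the RGW background is described as well, while the SFr, NSFr and Rb2 backgrounds used libraries outside it. Slc16a6 had 9.56, 8.51 and 9.66 CPM in RGW_Dgal, against 5.42, 5.64 and 5.76 CPM in RGW libraries. It had 14.3, 13.6 and 13.7 CPM in SFr_Dgal, against 7.98, 7.33 and 7.53 CPM in SFr libraries. The groups with and without the sugar did not overlap on either background.

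Nor did they overlap on the remaining backgrounds. NSFr_Dgal libraries had 9.02, 9.82 and 10.0 CPM, against 4.64, 5.10 and 5.57 CPM in NSFr libraries. Rb2_Dgal libraries had 13.1, 15.2 and 14.2 CPM, against 6.43, 6.56 and 6.20 CPM in Rb2 libraries. Slc16a6 thus rose on the SFr, NSFr and Rb2 backgrounds, by 1.15 ± 0.082 after Rb2 (log2, adjusted p = 7.09e-12), 0.92 ± 0.091 after NSFr (1.75e-08) and 0.87 ± 0.079 after SFr (6.31e-10). The described difference after RGW was 0.72 ± 0.090, where 15.2% of all genes were called. Slc16a6 was the only one of the 4 genes called on the NSFr background, where 12.7% of all genes were called. On the SFr background all 4 were called higher (19% of all genes in either direction, 8.46% higher), and on the Rb2 background Slc16a6 and Slc16a3 (21% in either direction).

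The dividing-cell markers moved with these values: 5 of 5 fell on each of the 4 backgrounds. They summed to 64.0 to 76.5 CPM in RGW_Dgal and 96.7 to 131 CPM in RGW, and to 87.9 to 100.3 CPM in NSFr_Dgal and 148 to 174 CPM in NSFr. The sums were 92.2 to 98.98 CPM in Rb2_Dgal and 157 to 179 CPM in Rb2 libraries. Their part in the level of Slc16a6 was not tested.

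**Figure D3:**
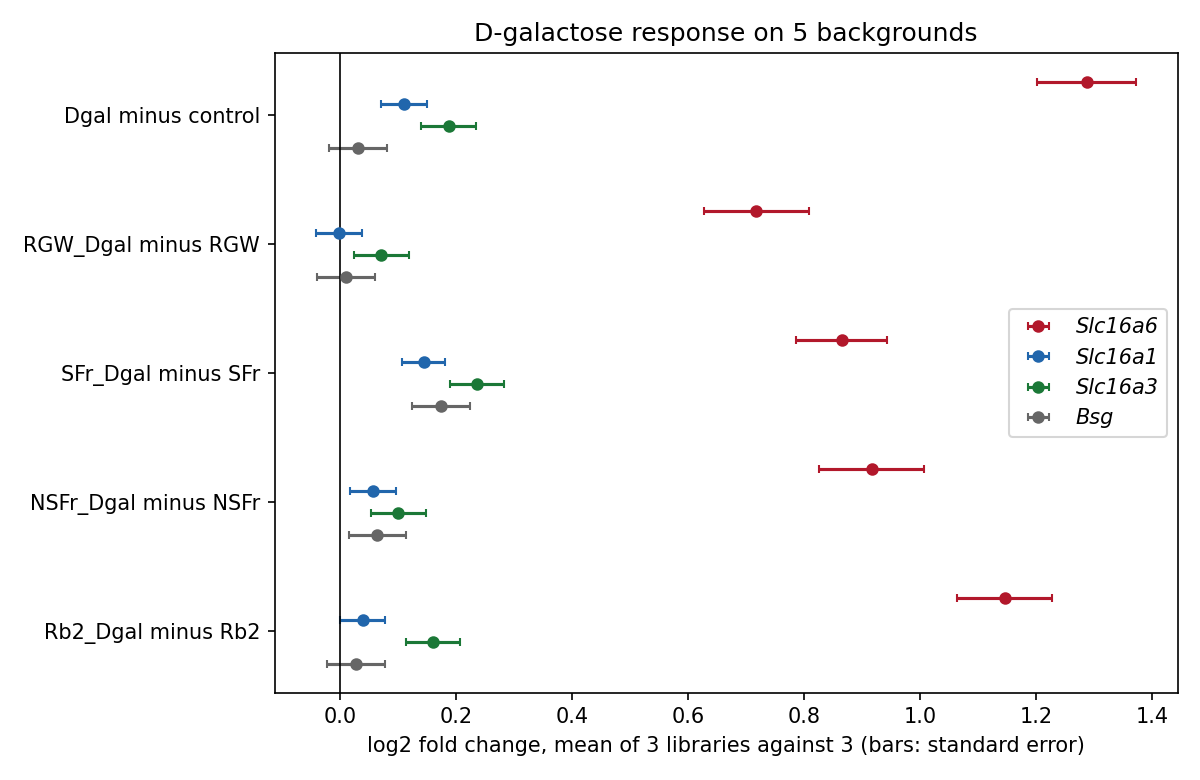
D-galactose response of the 4 genes as log2 fold change (points) with its standard error (bars), for each group with D-galactose against the group with the same pretreatment and no D-galactose. Slc16a6 responded by 0.72 to 1.29, and no other gene by more than 0.24.

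Whether the D-galactose response depended on the preparation was compared directly between the 4 preparation backgrounds, in 6 pairs that use neither Dgal nor control libraries; Rb2 was given in another unit of dose than the others. The 3 pairs with RGW hold RGW_Dgal libraries, so they are described for Slc16a6, which leaves 21 tests of the 4 genes. Of these edgeR called 0 at an adjusted p under 0.05 and 6 had an unadjusted p under 0.05, and DESeq2 called 0. All 6 were in pairs with SFr. There were 3 for SFr minus RGW (Slc16a1, Slc16a3 and Bsg), 1 for SFr minus NSFr (Slc16a3) and 2 for SFr minus Rb2 (Slc16a6 and Bsg). For Slc16a6, the response after SFr minus that after Rb2 was -0.28 (95% interval of the difference -0.52 to -0.05, adjusted p = 0.278). The intervals were -0.48 to 0.02 for NSFr minus Rb2 and -0.30 to 0.20 for SFr minus NSFr. The described differences were -0.43 ± 0.12 for RGW minus Rb2, -0.20 ± 0.13 for RGW minus NSFr and 0.15 ± 0.12 for SFr minus RGW. Few genes of any kind passed these tests. For RGW minus Rb2, edgeR called 0 genes, with 697 at an unadjusted p under 0.05, and DESeq2 called 0. For RGW minus NSFr the counts were 0, 621 and 0, and for NSFr minus Rb2 they were 0, 829 and 6. With SFr in the pair, 0.624% of genes were called against RGW, 0.509% against NSFr and 0.533% against Rb2. Of the 12184 genes, 1221, 976 and 1617 had an unadjusted p under 0.05 in these 3 pairs.

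The level of Slc16a6 in the D-galactose groups fell into a higher and a lower range. Dgal, Rb2_Dgal and SFr_Dgal averaged 14.3 ± 0.971, 14.1 ± 1.04 and 13.9 ± 0.341 CPM, and their libraries overlapped. NSFr_Dgal and RGW_Dgal averaged 9.62 ± 0.527 and 9.25 ± 0.640 CPM, also with overlap, and every library of both lay below every library of the first 3 groups and above every library without D-galactose (SD, n = 3 each). The log2 difference from Dgal was -0.57 ± 0.078 in NSFr_Dgal, -0.63 ± 0.078 in RGW_Dgal, where 5.06% of all genes were called, -0.04 ± 0.073 in SFr_Dgal and -0.01 ± 0.074 in Rb2_Dgal. All 4 comparisons share the Dgal libraries, which had served to choose the gene, and are given without a test. SFr_Dgal against NSFr_Dgal uses none of them, and there Slc16a6 was higher by 0.53 ± 0.076 (adjusted p = 6.18e-07), with no overlap of libraries. In that comparison 41% of all genes were called. Without D-galactose, Slc16a6 was also higher in SFr than in NSFr, by 0.58 ± 0.094 (adjusted p = 4.5e-06). The response after SFr minus that after NSFr was -0.05 and was not called (adjusted p = 0.969). Markers moved in some of these comparisons. Of the 5 dividing-cell markers, 4 rose in NSFr_Dgal against Dgal (median log2 fold change 0.54), but 0 were called in RGW_Dgal against Dgal (0.12). In SFr_Dgal against NSFr_Dgal 5 fell (-1.78), where 6 of 9 myotube markers and 4 of 5 myoblast and satellite-cell markers also fell. All 5 dividing-cell markers also fell in SFr_Dgal against Dgal (-1.14), where the Slc16a6 libraries overlapped. In Rb2_Dgal against Dgal, where the Slc16a6 libraries overlapped too, 2 of 5 dividing-cell markers rose (0.56). Their part in the levels was not tested.

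Without D-galactose, Slc16a6 had its highest group mean in SFr, whose libraries lay above all control libraries (log2 difference 0.38 ± 0.092). The other differences from control were -0.06 ± 0.099 after RGW, -0.20 ± 0.10 after NSFr and 0.13 ± 0.095 after Rb2. All are given without a test, since the control libraries had served to choose the gene. They also spread more for Slc16a6 than any other group, with a coefficient of variation of 13.8%.

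Slc16a6 overlaps neighbours on the opposite strand, and the strand setting of the authors' counting is not given in the sources used here. Amz2, a metalloprotease gene at 54.9 to 59.9 CPM per group mean, shares 1052 exon bases with it, and was called in 0 of the 21 comparisons (lowest adjusted p = 0.0927). In Dgal against control the log2 difference of Amz2 was 0.0002 ± 0.043. Expected counts of Slc16a6 and Amz2 were not whole in any library (143.63 and 1665.37 in control replicate 1). Within each library they added up to a whole number, to rounding, so RSEM divided reads between both genes. How much of the Slc16a6 values these reads make up was not tested. Arsg, an arylsulfatase gene at 2.83 to 5.21 CPM, shares 48 exon bases. Arsg rose after SFr, by 0.74 ± 0.12 against control and by 0.66 ± 0.12 in SFr_Dgal against Dgal (adjusted p = 6.52e-06 and 2.45e-05). Expected counts of Arsg were whole in every library (86 in control replicate 1 and 149 in SFr replicate 1), so RSEM divided none of its reads. The part of Arsg reads in the SFr value of Slc16a6 was not tested.

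Basigin changed least. Bsg had 748, 739 and 710 CPM in SFr, against 906, 793 and 796 CPM in control libraries, and all SFr libraries were lower. The log2 fold change was -0.18 ± 0.050 (adjusted p = 0.00309). It rested partly on control replicate 1, the highest of the 30 libraries, without which the call was lost (-0.11, adjusted p = 0.0767). In SFr_Dgal, with 803, 779 and 896 CPM, Bsg exceeded SFr by 0.17 ± 0.050 (adjusted p = 0.0122), which was lost without SFr_Dgal replicate 3 (0.128) or SFr replicate 3 (0.0655). Of the myotube markers, 7 of 9 fell after SFr against control, where 43.1% of all genes were called. In SFr_Dgal against SFr 6 of 9 rose and 1 fell (median log2 fold change 0.20), beside 19% of all genes called. In SFr_Dgal against Dgal, where Bsg was not called, 6 of 9 fell and 0 rose (-0.52), beside 41.3% of all genes called. Their part in the level of Bsg was not tested. Bsg in SFr_Dgal did not differ detectably from Dgal, with 787, 887 and 874 CPM there (95% interval -0.14 to 0.06).

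Bsg was not called for any other preparation or background against its own baseline. The 95% intervals of the log2 difference from control were -0.14 to 0.06 for RGW and for NSFr and -0.06 to 0.14 for Rb2. Against Dgal they were -0.11 to 0.09 for NSFr_Dgal and -0.07 to 0.14 for Rb2_Dgal. The differences given without a test were 0.03 ± 0.050 for Dgal against control and -0.06 ± 0.050 for RGW_Dgal against Dgal. The D-galactose response had intervals of -0.09 to 0.11 after RGW, -0.04 to 0.17 after NSFr and -0.07 to 0.13 after Rb2. In the order of means, SFr (732 ± 19.6 CPM) was clear of all others at the bottom. Rb2_Dgal (870 ± 7.35 CPM) stood at the top, clear of the next group, Rb2, but not of all others. The highest libraries of control (906 CPM), SFr_Dgal (896 CPM) and Dgal (887 CPM) lay above all Rb2_Dgal libraries.

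The ratio of basigin to the lactate carriers was narrower with SFr, where Slc16a1 and Slc16a3 were higher. Bsg was called lower after SFr alone, but not in SFr_Dgal against Dgal. Per kilobase of exon, the ratio of Bsg to Slc16a1 and Slc16a3 together was 8.86 ± 0.520 in SFr_Dgal and 8.95 ± 0.103 in SFr. It was 12.0 ± 0.591 in Dgal and 13.1 ± 0.874 in control (SD, n = 3 each). Its size depends on the annotated exon lengths, which may differ from those of the transcripts present. In the other 6 groups the mean lay between 11.7 and 13.0. Every library with SFr was below every library without it, and the ratio was not tested.

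**Figure D4:**
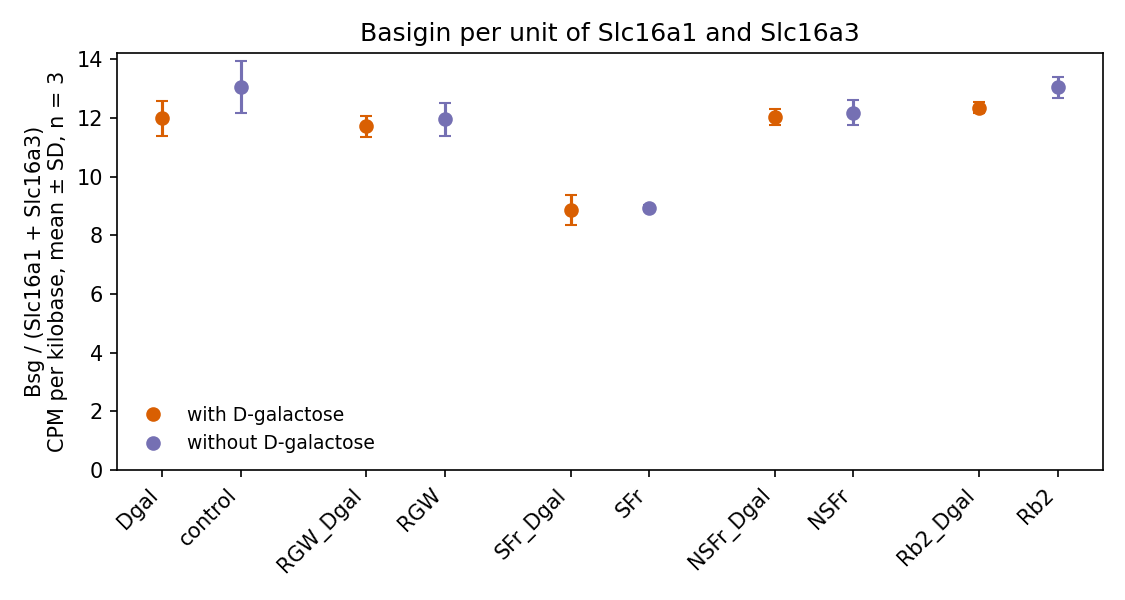
Ratio of Bsg to the sum of Slc16a1 and Slc16a3 in CPM per kilobase of exon, as group means with SD (n = 3); groups with D-galactose stand left of the group without it. The means with SFr are 8.86 and 8.95, and those of the other 8 groups lie from 11.7 to 13.1.

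The saponin and the non-saponin fraction were given at the same dose and times, so they were compared directly. In SFr against NSFr, Slc16a1 was higher by 0.67 ± 0.039 (adjusted p = 3.53e-16) and Slc16a6 by 0.58 ± 0.094 (4.5e-06), and Bsg was lower by a log2 fold change of -0.14 ± 0.050 (0.024); 40.4% of all genes were called. The Bsg call was lost when any of 4 libraries was left out, with adjusted p = 0.0538 without SFr replicate 2, 0.117 without SFr replicate 3, 0.05 without NSFr replicate 2 and 0.116 without NSFr replicate 3. Slc16a3 was -0.02 apart (95% interval -0.12 to 0.07), although both fractions raised it over control. With D-galactose, Slc16a1 was higher in SFr_Dgal than in NSFr_Dgal by 0.76 ± 0.039 (1.26e-17), and the interval for Bsg was -0.13 to 0.07. Slc16a3 was higher by 0.11 ± 0.046 (adjusted p = 0.0453), a call at the edge that was lost in 5 of the 6 fits that left out a library (adjusted p up to 0.241, without NSFr_Dgal replicate 2) and with DESeq2 (0.0575). Of the myotube markers, 8 of 9 fell in SFr against NSFr, with 5 of 5 dividing-cell markers, and their part in these differences was not tested. Beyond the responses to D-galactose above, levels after RGW and Rb2 were compared with their baselines only.

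**Figure D5:**
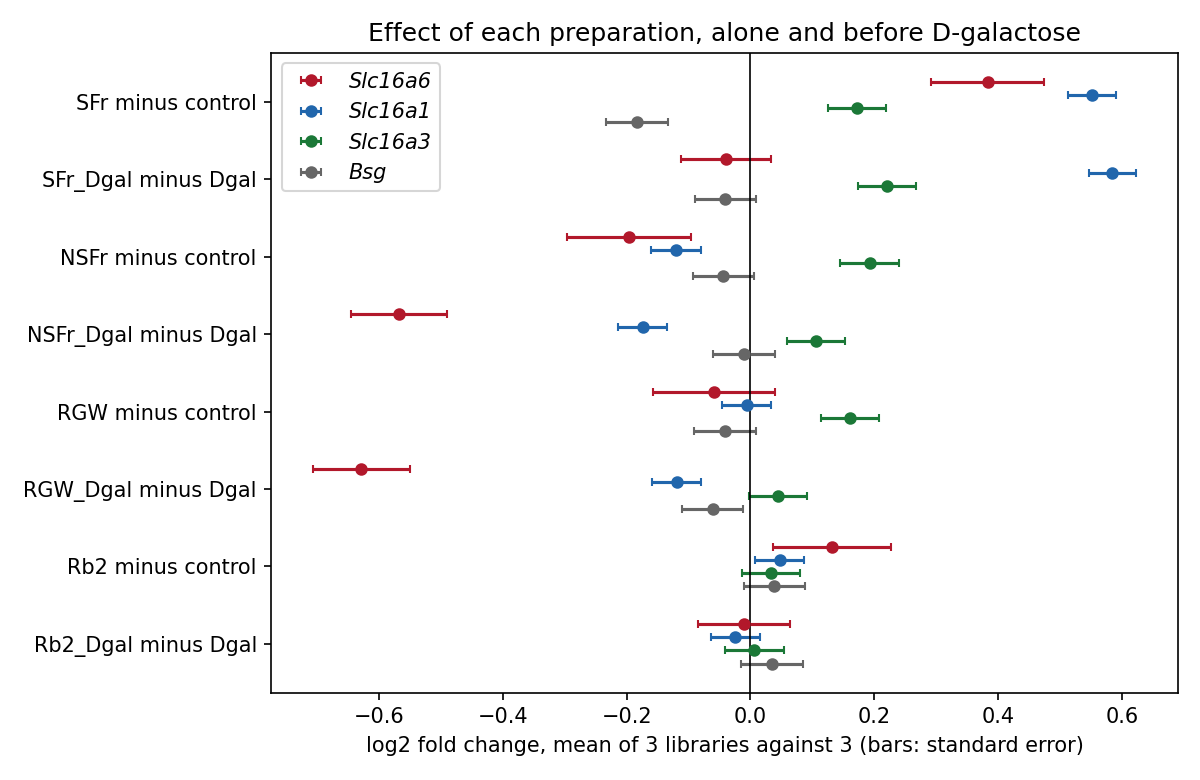
Effect of each preparation on the 4 genes as log2 fold change (points) with its standard error (bars), alone against control and before D-galactose against Dgal. SFr raised Slc16a1 by 0.55 and 0.59, and the Slc16a6 values are -0.57 for NSFr_Dgal and -0.63 for RGW_Dgal.

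Of 13 further carriers of the family and its sodium-coupled relatives, 8 had enough counts to be tested; Slc16a5, Slc16a8, Slc16a14, Slc5a8 and Slc5a12 had at most 10 expected counts in any library. After SFr, 1 of the 8 rose against control, where 21.3% of all genes rose. Slc16a11, which encodes MCT11, had 11.9 CPM in SFr and 5.12 CPM in control (1.23 ± 0.086, adjusted p = 5.27e-14). It also rose in SFr_Dgal against Dgal, where 3 of 8 rose beside 20.3% of all genes, with Slc16a10, the aromatic amino acid carrier TAT1, also higher (0.45 ± 0.091, adjusted p = 0.000126). After Rb2 alone, Slc16a13 fell against control (-0.30 ± 0.077).

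Among 10 relatives and partners of basigin, embigin was the largest rise after SFr. Emb had 42.0 ± 1.04 CPM in SFr and 22.7 ± 1.19 CPM in control (0.89 ± 0.050, adjusted p = 1.59e-16), and 35.4 ± 1.29 CPM in SFr_Dgal and 23.6 ± 0.477 CPM in Dgal (0.58 ± 0.051, adjusted p = 1.34e-11; SD, n = 3 each). In each pair the libraries did not overlap. Embigin also rose after Rb2 (0.34 ± 0.052, adjusted p = 6.92e-05) and RGW (0.23 ± 0.052, adjusted p = 0.00795), and in SFr_Dgal it was lower than in SFr by a log2 fold change of -0.25 ± 0.047 (adjusted p = 0.000218). It was the only member of the list to rise after SFr, and 5 of 10 fell, among them Itgb1, the integrin beta 1 gene (-0.31 ± 0.028), Slc7a5, the amino acid carrier LAT1 (-0.35 ± 0.044), and Atp1b2, a sodium pump subunit (-0.95 ± 0.13). The median of the list was -0.11 after SFr, where 60% of its tested genes were called, beside 43.1% of all genes. Called members of this list were all lower with D-galactose on the 4 preparation backgrounds, 6 of 10 after SFr, 5 after RGW, 4 after Rb2 and 3 after NSFr. The shares of all genes called there, in either direction, were 19%, 15.2%, 21% and 12.7%. Ppib, a cyclophilin gene, and Mmp14, a membrane metalloprotease gene, were named on all 4.

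The enzymes that make and use lactate and pyruvate were followed beside their carriers. Ldha, the muscle lactate dehydrogenase subunit, was called in 1 D-galactose comparison of the 4, SFr_Dgal against SFr (1270 CPM in SFr_Dgal and 1160 CPM in SFr, 0.13 ± 0.044, adjusted p = 0.0315). Pkm, which encodes the pyruvate kinase of muscle, rose on all 4 backgrounds, from 0.15 ± 0.033 after RGW to 0.25 ± 0.033 after Rb2. Gpt2, an alanine aminotransferase that uses pyruvate, fell on all 4, by a log2 fold change of -0.16 ± 0.043 after NSFr to -0.36 ± 0.043 after Rb2. Of the 18 enzymes and pyruvate carriers, 6 rose and 4 fell after SFr against control (55.6%, beside 43.1% of all genes called), with a median of 0.03. Pdk4, a kinase that holds back the pyruvate dehydrogenase complex, had 52.4 CPM in SFr and 32.6 CPM in control (0.69 ± 0.056, adjusted p = 2.84e-12). Gpt2 was lower there (-0.45 ± 0.043), as was Pdha1, a subunit of the complex itself (-0.16 ± 0.029).

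The genes most like each of the 4 over the 30 libraries were found by Pearson's r of log2 CPM among 9651 genes with a mean of at least 5 CPM. For Slc16a1 they were Ankrd33b (0.977), Hsd17b7 (0.975), Zfand2a (0.974), Wdr36 (0.972) and Ywhag (0.972). For Slc16a3 they were Egln1, a prolyl hydroxylase of the oxygen-sensing pathway (0.880), Eno2, an enolase (0.878), Pick1 (0.878), Vwa1 (0.872) and Them6 (0.858). For Slc16a6 they were Arrdc3, an arrestin-family gene (0.974), Mybbp1a (0.945), Rgcc (0.939), Csrp3 (0.938) and Xpo1 (0.934). For Bsg they were Ldha (0.839), Commd3 (0.826), Tnni1 (0.821), Tmem109 (0.772) and Mylpf (0.767). These values are descriptions: the libraries share groups and depth, and the 6 SFr libraries stand apart. Arrdc3 had 116 ± 4.24 CPM in Rb2_Dgal and 61.2 ± 3.66 CPM in Rb2, and 81.9 ± 0.682 CPM in NSFr_Dgal against 117 ± 7.66 CPM in Dgal (SD, n = 3 each).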

How the data were processed

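Per the labels' protocols, mRNA with poly(A) tails was converted to strand-specific (directional) libraries for DNBSEQ sequencing. The submitters' processing notes name STAR 2.7.9a, RSEM 1.3.3, Trim Galore 0.6.10 and FastQC 0.11.9 and the builds GRCm38 and mm10; the sources used here do not name the annotation or the strand setting. The authors deposited expected counts per gene, not normalized, in which RSEM divides reads that match several genes; 19.4% of the values were not whole.

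Expected counts were rounded and tested with edgeR 4.0.16 (quasi-likelihood, robust) in R 4.3.3, with 10 groups, all 30 libraries, TMM scaling and filterByExpr, which kept 12184 genes. Calls are at a Benjamini-Hochberg adjusted p under 0.05 over all genes kept. Standard errors come from the F statistic (|log2 fold change| over the root of F), and intervals are at 95%. CPM use TMM-scaled totals. Depth sets counting precision only. The common dispersion of the fit gave a biological coefficient of variation of 4.25%. Separately, replicates compared in pairs within groups differed by 2.48 to 13.7 chi-square units per degree of freedom. None was merged. The fit was also run on counts simulated with the dispersions estimated from these data. Such counts cannot show how well the model suits the data.

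The 4 genes and the lists (72 genes in 5 pathway lists, and 7 marker lists) were chosen with earlier results of these data known. Named besides them are up to 4 called genes per list by smallest p, the 5 most correlated genes with a mean of at least 5 CPM, predicted genes and clones left out, and genes that overlap a member. The text summarises some of these. Expected counts of genes with close copies are uncertain. Lengths and positions come from GENCODE vM21, promoters from RefSeq, whose table matched 2 of the 4 genes. Alternatives were RLE and library-total scaling, no filter, DESeq2 1.42.0, a block for the replicate number, fits of the compared groups alone and fits without each library in turn. Results for 1 carrier of the family, and counts of falls in its list, are not reported here.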

Additional observations from a re-analysis of the deposited data

How the results depend on the processing

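Of 906 values of tested differences of the 4 genes under alternatives, 843 kept their direction and their side of the threshold. The rises of Slc16a6 on the SFr, NSFr and Rb2 backgrounds and of Slc16a1 with SFr kept their calls under all 12 alternatives each. The tested values that turned sign were all of differences that were not called. Of 246 values of differences given without a test, 6 turned sign: Bsg in Dgal minus control (-0.0015 without control replicate 2), Slc16a3 in RGW_Dgal minus Dgal (-0.00094 without RGW_Dgal replicate 3) and Slc16a6 in RGW minus control and Rb2_Dgal minus Dgal, whose ranges stand below. Causes were not tested.

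With library-total scaling, the log2 difference of Slc16a1 became 0.0044 for RGW minus control and 0.0042 for RGW_Dgal minus RGW, that of Slc16a3 became -0.0023 for Rb2_Dgal minus Dgal and 0.012 for SFr minus NSFr, and Bsg in SFr minus NSFr lost its call (-0.11). Slc16a1 in RGW_Dgal minus RGW was also 0.0021 with RLE scaling, 0.0012 with no filter, 0.0019 with DESeq2 and 0.0067 with only the groups compared. Slc16a3 in RGW minus control was called with library-total scaling (0.17) and DESeq2 (0.16). In SFr_Dgal minus NSFr_Dgal it was not called with no filter (0.12), DESeq2 (0.11) or only the groups compared (0.12).

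Samples of different groups that share a replicate number had correlations of their deviations from -0.177 to 0.157 over 45 pairs of libraries, and a library correlated best with its own number in 14 of 45, so the numbers do not pair the samples. With the replicate number as a block, 64 of 65 tested differences of the 4 genes kept their call and Slc16a3 in RGW minus control was called (0.16, adjusted p = 0.0476). The count of genes whose D-galactose response differed between NSFr and Rb2 became 1 with the block.

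When only the groups compared were fitted, the counts of called genes over all genes that moved by more than 1.5 times were 348 in place of 617 in RGW_Dgal minus Dgal, 91 in place of 391 in RGW minus control, 508 in place of 984 in NSFr minus control, 106 in place of 187 in Rb2 minus control, 1154 in place of 1855 in RGW_Dgal minus RGW and 1466 in place of 2315 in SFr_Dgal minus SFr. For the difference of responses after SFr and RGW there were 16 in place of 76, after SFr and Rb2 35 in place of 65 (104 with DESeq2), and after NSFr and Rb2 14 in place of 0 (3 with library-total scaling, 3 with no filter, 6 with DESeq2).

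With each library left out in turn, the log2 differences from control ranged for RGW from -0.033 to 0.011 in Slc16a1, 0.10 to 0.19 in Slc16a3, -0.17 to 0.032 in Slc16a6 and -0.077 to 0.028 in Bsg, for SFr from 0.11 to 0.21 in Slc16a3 and -0.22 to -0.11 in Bsg, for NSFr from 0.14 to 0.23 in Slc16a3 and -0.075 to 0.028 in Bsg, and for Rb2 from -0.024 to 0.067 in Slc16a3. Against Dgal they ranged from -0.10 to 0.0062 in Bsg for SFr_Dgal, from -0.20 to -0.15 in Slc16a1 and -0.060 to 0.025 in Bsg for NSFr_Dgal, and from -0.026 to 0.051 in Slc16a3, -0.066 to 0.039 in Slc16a6 and -0.018 to 0.068 in Bsg for Rb2_Dgal. The D-galactose response ranged from -0.015 to 0.028 in Slc16a1 and -0.035 to 0.046 in Bsg after RGW, 0.11 to 0.22 in Bsg after SFr and 0.14 to 0.18 in Slc16a3 after Rb2. Differences of responses ranged from -0.073 to 0.012 in Slc16a3 (RGW minus NSFr), -0.065 to 0.016 in Bsg (RGW minus Rb2), -0.11 to 0.016 in Slc16a6 (SFr minus NSFr) and -0.023 to 0.043 in Slc16a1 (NSFr minus Rb2). Between the fractions, Bsg ranged from -0.15 to -0.11 in SFr minus NSFr and -0.092 to 0.014 in SFr_Dgal minus NSFr_Dgal, and Slc16a3 from 0.079 to 0.16 in SFr_Dgal minus NSFr_Dgal.

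Counts of called genes with a library left out ranged from 342 to 453 in RGW_Dgal minus Dgal, 196 to 348 in RGW, 592 to 861 in NSFr and 115 to 209 in Rb2 minus control, 353 to 624 in NSFr_Dgal and 126 to 227 in Rb2_Dgal minus Dgal, and 1672 to 2126 in Rb2_Dgal minus Rb2. For differences of responses they ranged from 36 to 76 (SFr minus RGW), 0 to 1 (RGW minus NSFr), 37 to 59 (SFr minus NSFr), 25 to 123 (SFr minus Rb2) and 0 to 3 (NSFr minus Rb2).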

Other observations

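Among genes that handle protons, which MCT1 and MCT4 carry along, Car12 and Car9 were lower with SFr and higher with D-galactose. Car12, a carbonic anhydrase at the cell surface, had 3.40 CPM in SFr and 11.5 CPM in control (log2 fold change -1.76 ± 0.10, adjusted p = 3.25e-16), and 6.61 CPM in SFr_Dgal and 18.4 CPM in Dgal (-1.47 ± 0.084, adjusted p = 3.48e-16). It rose with D-galactose on all 4 preparation backgrounds, by 0.97 ± 0.11 after SFr, 0.65 ± 0.082 after Rb2, 0.54 ± 0.082 after RGW and 0.50 ± 0.077 after NSFr. Car9, its relative, was also lower with SFr (-0.36 ± 0.068 against control) and higher with D-galactose, by 0.35 ± 0.068 after SFr, 0.32 ± 0.067 after Rb2, 0.29 ± 0.068 after NSFr and 0.23 ± 0.068 after RGW. Of the 11 tested genes of the list, 2 rose and 4 fell after SFr, and 7 fell in SFr_Dgal against Dgal, with medians of -0.14 and -0.16. The called shares of the list were 54.5% and 63.6%, beside 43.1% and 41.3% of all genes.

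Among 17 glucose carriers and their regulators, 5 rose and 2 fell after SFr (41.2%, beside 43.1% of all genes called). Slc2a1, the glucose carrier GLUT1, had 247 CPM in SFr and 147 CPM in control (0.75 ± 0.044, adjusted p = 7.31e-16), and 275 CPM in SFr_Dgal and 170 CPM in Dgal (0.69 ± 0.044, adjusted p = 6.19e-15). In NSFr_Dgal against Dgal, 4 of 17 fell (23.5%, beside 6.33% of all genes called): Arrdc3 (-0.51 ± 0.056), Txnip, the thioredoxin-interacting protein gene (-0.41 ± 0.047), Slc2a4, the insulin-responsive carrier GLUT4 (-0.50 ± 0.10), and Arrdc4 (-0.55 ± 0.14).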
